A study of Macaca fascicularis with 2 samples.

Results

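The IL17B-high cells were 152 cells of macaque nucleus pulposus (NP) and articular cartilage (AC) in which *IL17B*, a secreted cytokine of the interleukin-17 family, took at least 100 of every 1000000 reads of the cell. They were chosen by 2 rules on read counts, fewer than 5 reads of *KRT19* (a keratin used as a marker of notochordal cells) and *IL17B* at 100 reads per 1000000 (rpm) or more. They made up 2.86% (exact binomial 95% interval 2.43 to 3.35%) of the 5311 tagged cells with fewer than 5 *KRT19* reads, in a library of 5723 cell columns of which 5674 carried 1 of the tags A951, A952, A953 and A954.

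The study profiled single cells by TAS-seq, a full-transcriptome method that counts reads without molecular identifiers, from wild-type male cynomolgus monkeys that were 3 years old. There were 2 animals, of which 1 gave both NP, the gelatinous core of the intervertebral disc, and knee AC taken at the femoral condyle, and the other gave such AC alone. Cells were digested out of the tissue, surface-labelled with an oligonucleotide tag for each tissue piece, and pooled into 1 cDNA library. The labels name 3 tissue pieces, 4 tags occur, and nothing pairs a tag with a tissue, so whether a given IL17B-high cell came from a disc or from a joint was not determined here. With 1 library there is no replicate of a condition. The values of the 4 tags are given as the spread, no test was made, and the intervals cover counting error only, since reads that are PCR copies are not independent molecules.

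Cartilage is built by chondrocytes that secrete type II collagen and aggrecan. Chondrocytes near a joint surface make lubricin, encoded by *PRG4*, whereas those that mature towards bone are known for the parathyroid hormone receptor, RUNX2, type X collagen and proteins that bind or deposit mineral. IL17B is a ligand of the interleukin-17 receptor B, and GFRA3, EDNRB, NPVF and MEPE, the genes proposed with it as markers of these cells, encode an artemin co-receptor, an endothelin receptor, a neuropeptide precursor and a matrix phosphoprotein of bone.

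*IL17B*, which chose the cells, ranged from 103.5 to 13372 rpm among them with a median of 1836 rpm. The cells just inside the limit held 103.5, 114.7, 121.8 and 133.8 rpm, and those just outside it held 84.0, 76.8, 74.3 and 53.6 rpm. Of the 5159 other cells, 3984 had no *IL17B* read and 4 lay between 50 and 100 rpm, whereas 108 of the 152 IL17B-high cells lay at 1000 rpm or more. Among the 363 cells with 5 or more *KRT19* reads, 64 had an *IL17B* read (17.6%, 13.9 to 21.9%) and none reached 100 rpm. That count of 0 allows a share of up to 0.826%, and the highest of these cells held 38.6 rpm.

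**Figure D1:**
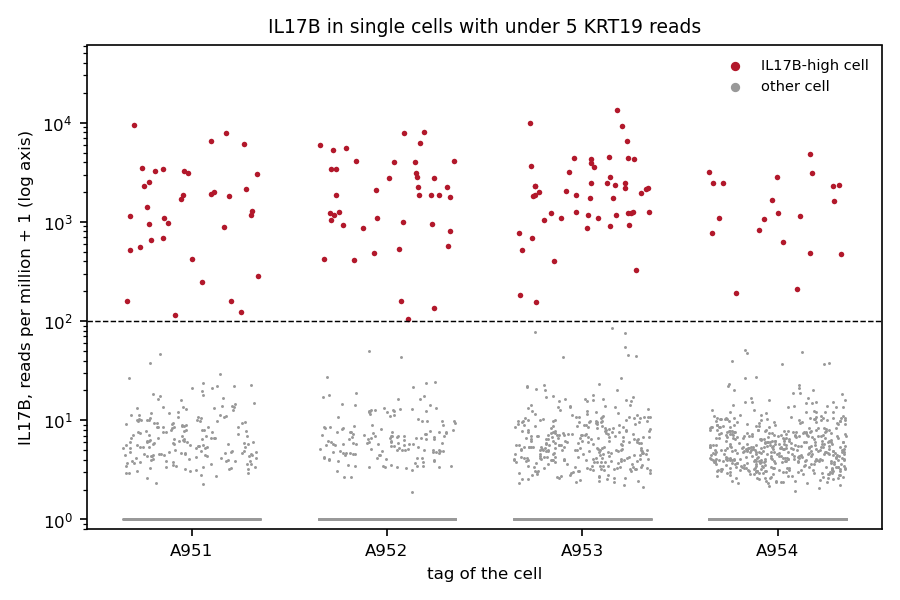
*IL17B* in rpm plus 1 (log axis) in each cell with under 5 *KRT19* reads, by tag, with the 100 rpm limit as a dashed line and the 152 IL17B-high cells in red. The cells with no read form the line at the bottom, and 4 cells lie between 50 and 100 rpm.

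IL17B-high cells occurred under all 4 tags. They were 37 of 921 cells under A951 (4.02%, 2.84 to 5.50%), 42 of 861 under A952 (4.88%, 3.54 to 6.54%), 52 of 1377 under A953 (3.78%, 2.83 to 4.92%) and 21 of 2152 under A954 (0.976%, 0.605 to 1.49%). The share under A954 lay below the intervals of the other 3 tags, which overlapped each other, and without A954 the share was 4.15%. Cells with 5 or more *KRT19* reads numbered 76 under A951 (7.62% of its cells), 271 under A952 (23.9%), 6 under A953 (0.434%) and 10 under A954 (0.463%). A952 thus had the highest share of both. A953 was low in *KRT19* cells alone, and its share of IL17B-high cells was not set apart from those of A951 and A952 by their intervals. Median *IL17B* was 1397 rpm in the members under A951, 1860 rpm under A952, 1899 rpm under A953 and 1219 rpm under A954, with ranges that overlapped throughout.

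The IL17B-high cells were deeper than the rest. Their median was 383250 reads and 5318 genes detected per cell, against 196122 reads and 3791 genes in the other cells. Each IL17B-high cell was therefore set beside the 5 other cells nearest to it in genes detected, which gave 760 matched cells with a median of 376923 reads and 5316 genes. Values for single tags used 3 matched cells of the same tag for each member, 456 in all. Levels below are pooled rpm, that is all reads of a gene over all reads of the group, and ratios are log2 of the pooled rpm of IL17B-high over matched cells.

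The cells resembled each other in genes other than the markers. When the neighbours of each cell were found from 5000 variable genes without *IL17B*, *GFRA3*, *EDNRB*, *NPVF* and *MEPE*, 74.7% of the 20 nearest neighbours of an IL17B-high cell were IL17B-high cells, against 2.86% of all cells used and 0.941% for the neighbours of the matched cells. The share was 72.7% under A951, 72.1% under A952, 77.7% under A953 and 75.7% under A954. Of those member neighbours 67.9% carried another tag. In 117 of the 152 cells members made up 50% or more of the neighbours, and 6 cells had none. The 35 cells under 50% had a median *IL17B* of 778 rpm, against 2115 rpm in the 117. Among the other 5159 cells, 16 had members for 50% or more of their neighbours.

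Of the 10910 genes with a read in at least 10% of the cells of 1 group, 745 (6.83%) were at least 2-fold higher and 1936 (17.7%) at least 2-fold lower in IL17B-high than in matched cells. Under every one of the 4 tags 182 genes were 2-fold higher and 546 were 2-fold lower. Counts of called genes in the lists below are to be read beside the shares of 6.83% and 17.7%. The median log2 ratio of all these genes was -0.27, so the typical gene was slightly lower in the IL17B-high cells and ratios are best read against that value.

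The 4 proposed markers were present in part of the cells. *GFRA3* was at 128.7 rpm against 2.96 rpm in matched cells, a log2 ratio of 5.44, with 79.2, 134.1, 156.1 and 130.7 rpm under A951 to A954 against 3.08, 3.76, 3.17 and 2.69 rpm. *EDNRB* was at 41.6 rpm against 2.79 rpm (3.90), with 41.2, 62.7, 21.5 and 59.1 rpm against 0.167, 4.59, 1.19 and 0.324 rpm. For both genes every tag's value in IL17B-high cells lay above every tag's value in matched cells.

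*NPVF* was at 44.0 rpm against 0.0604 rpm (9.51), and its 4 tags gave 36.9, 32.4, 62.2 and 28.9 rpm against 0.0239, 0.0238, 0.0574 and 0.0972 rpm. *MEPE* was at 20.6 rpm against 0.693 rpm (4.89), with 25.1, 19.2, 11.1 and 37.1 rpm against 1.05, 1.93, 2.10 and 1.59 rpm. Again no tag of the matched cells reached a tag of the IL17B-high cells. Since these genes were proposed as markers from the same cells, the values are a description.

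Counted cell by cell with at least 5 reads, 60 of the 152 IL17B-high cells had *GFRA3* (39.5%), 57 had *EDNRB* (37.5%), 51 had *NPVF* (33.6%) and 21 had *MEPE* (13.8%). The matched cells gave 12, 14, 0 and 7 of 760. No *KRT19* cell had 5 *EDNRB*, *NPVF* or *MEPE* reads, whereas 4.13% of them had 5 or more of *GFRA3*. The markers overlapped only in part, since 27 cells had both *GFRA3* and *EDNRB*, 27 both *GFRA3* and *NPVF* and 26 both *EDNRB* and *NPVF*. Of the IL17B-high cells 47 had none of the 4, 47 had 1, 35 had 2, 20 had 3 and 3 had all of them, whereas 729 of the 760 matched cells had none and none had 3 or more.

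Within the group, 3 of the 4 markers were found in more cells where *IL17B* was higher. Among the 44 members from 100 to 1000 rpm, 20.5% had 5 or more *GFRA3* reads, 9.09% *EDNRB* and 9.09% *NPVF*. Among the 108 members at 1000 rpm or more these shares were 47.2%, 49.1% and 43.5%. *MEPE* differed little, with 11.4% and 14.8% of cells and pooled levels of 21.4 and 20.3 rpm in the lower and upper class, and was at 15.7 rpm in the cells from 20 to 100 rpm. The median depth also differed, at 309148 reads in the lower class and 404235 in the upper. The 41 cells from 20 to 100 rpm, outside the group, had 0% *GFRA3*, 2.44% *EDNRB* and 0% *NPVF*, at a median depth of only 95536 reads, and the part of depth in these differences was not tested.

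**Figure D2:**
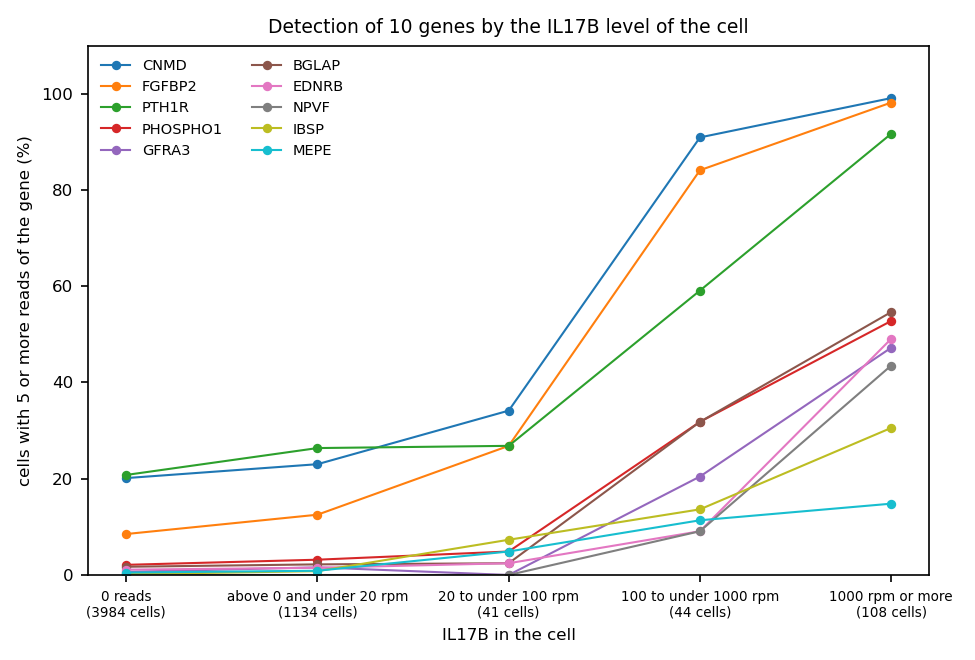
Share of cells (%) with 5 or more reads of each of 10 genes, by the *IL17B* level of the cell, with the number of cells in each class below the axis. *CNMD* went from 34.1% of cells at 20 to 100 rpm to 90.9% at 100 to 1000 rpm and 99.1% above, and the other lines also rise most from the third class on.

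Of the other genes of the interleukin-17 family, *IL17RC*, a receptor chain, was at 10.5 rpm against 2.23 rpm (2.23), but 78.4% of its reads in IL17B-high cells came from 5 cells and the ratio was 0.65 without tag A953. *IL17RB*, which encodes the receptor of IL17B, had a read in 9.87% of IL17B-high and 5.92% of matched cells and so was below the limit for comparison. *GDNF*, a neurotrophic ligand of the family that GFRA receptors bind, was at 80.0 rpm against 2.29 rpm (5.13) and reached 5 reads in 19.1% against 1.05% of cells. *NRTN*, another ligand of the family, was lower at 0.455 rpm against 1.53 rpm (-1.74, and -0.90 without tag A953), so that 2 of 6 compared genes of the list were higher and 1 lower. The higher genes, *GFRA3* (a read in 48.7% against 7.11% of cells) and *GDNF* (28.3% against 9.61%), passed the limit of 10% of cells through the IL17B-high cells alone. *GFRA3* is also a proposed marker, so for these genes the count is a description only. *RET*, the signalling receptor used with GFRA3, was at 1.02 rpm against 0.648 rpm, and *ARTN*, the ligand of GFRA3, had a read in 1.97% of IL17B-high cells.

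Genes of chondrocyte maturation and mineralization were mostly higher. Of 11 compared genes of that list 7 were 2-fold higher and 0 lower, with a median log2 ratio of 1.79 against -0.27 for all genes. The 7 were *IBSP*, *ALPL*, *BGLAP*, *PTH1R*, *RUNX2*, *MEF2C* and *SPP1*. Of these, *BGLAP* passed the limit of 10% of cells through the IL17B-high cells alone (a read in 52.6% against 6.71% of cells).

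*PTH1R*, the receptor of parathyroid hormone and its related peptide that paces chondrocyte maturation, was at 637, 1107, 802 and 996 rpm under A951 to A954, against 65.6, 103.8, 68.9 and 81.2 rpm in the matched cells of the same tag. The groups did not overlap, and the pooled log2 ratio was 3.76. Its cell-by-cell distribution was broad, with a median of 579 rpm and quartiles of 203 and 1184 rpm in IL17B-high cells against a median of 2.49 rpm in matched cells, and 82.2% of the former against 29.3% of the latter had 5 or more reads.

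*RUNX2*, the transcription factor of hypertrophic chondrocytes and osteoblasts, was at 11.3, 24.8, 33.1 and 39.7 rpm against 2.74, 2.97, 1.42 and 1.23 rpm (3.73 pooled). It reached 5 reads in 30.3% of IL17B-high cells and 0.658% of matched cells. *MEF2C*, another transcription factor of hypertrophy, was at 164 rpm against 47.5 rpm (1.79) and was highest under A954 with 366 rpm.

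*IBSP*, bone sialoprotein, was at 77.4, 368, 95.8 and 2240 rpm against 0.453, 0.666, 0.388 and 1.17 rpm, a pooled log2 ratio of 8.33. The tags did not overlap between groups, but the level was uneven. A954 stood far above the other tags, 5 cells held 72.2% of all *IBSP* reads of the group, and 39 of the 152 cells (25.7%) had 5 or more reads. *ALPL*, the phosphatase needed for mineral deposition, was at 33.5, 96.7, 20.8 and 206 rpm against 1.00, 0.333, 0.517 and 0.746 rpm (7.03), in 11.8% of cells at 5 reads or more.

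*BGLAP*, osteocalcin, was more even, at 294, 319, 328 and 187 rpm against 4.70, 6.09, 6.83 and 7.46 rpm (5.83), with 5 or more reads in 73 of 152 cells (48.0%) and 2.37% of matched cells. *PHOSPHO1*, a phosphatase that starts mineral formation in matrix vesicles, was at 131 rpm against 10.3 rpm (3.67) and reached 5 reads in 46.7% against 4.74% of cells. *SMPD3*, a sphingomyelinase needed for skeletal mineralization, had a read in 48.7% against 5.53% of cells, and its pooled level of 21.0 rpm against 0.931 rpm exceeded that of matched cells under 3 tags but not under A952, where the values were 10.1 and 15.8 rpm. These last 2 genes were among the 15 with the largest difference in the share of cells with a read, a list made after the values were seen. *SMPD3* passed the limit of 10% of cells through the IL17B-high cells alone.

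The matrix phosphoproteins that include *MEPE* showed 4 of 5 compared genes 2-fold higher and 0 lower, with *DMP1* at 24.7 rpm against 5.62 rpm (2.14) besides *IBSP*, *MEPE* and *SPP1*. *PHEX*, the endopeptidase listed with them, was at 9.90 rpm against 5.46 rpm. *MEPE* (a read in 17.8% against 4.21% of cells) and *DMP1* (10.5% against 6.45%) passed the limit of 10% of cells through the IL17B-high cells alone. *MEPE* is also a proposed marker, so for these genes the count is a description only. *SPP1*, osteopontin, was at 2380, 3296, 3844 and 3714 rpm against 1736, 204, 319 and 2686 rpm. Its tags overlapped between groups, and its median per cell was only 34.7 rpm against 18.7 rpm, while the upper quartile of the IL17B-high cells was 3555 rpm.

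Type X collagen was not part of this pattern. *COL10A1* was at 0.167 rpm in IL17B-high and 2.71 rpm in matched cells and had a read in 3.29% against 7.63% of cells. *IHH*, *SP7* and *MMP13*, a hedgehog ligand, an osteoblast transcription factor and a collagenase of hypertrophic cartilage, had reads in 0.658%, 3.29% and 1.97% of IL17B-high cells, all below the limit for comparison. Of the 71 cells with 5 or more *COL10A1* reads 1 (1.41%) was an IL17B-high cell, near the share of 2.86% among all cells. The other *COL10A1* cells held 85.1 rpm of *PTH1R*, 0.407 rpm of *IBSP* and 78.6 rpm of *CNMD*, against 863, 509 and 1494 rpm in IL17B-high cells.

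**Figure D3:**
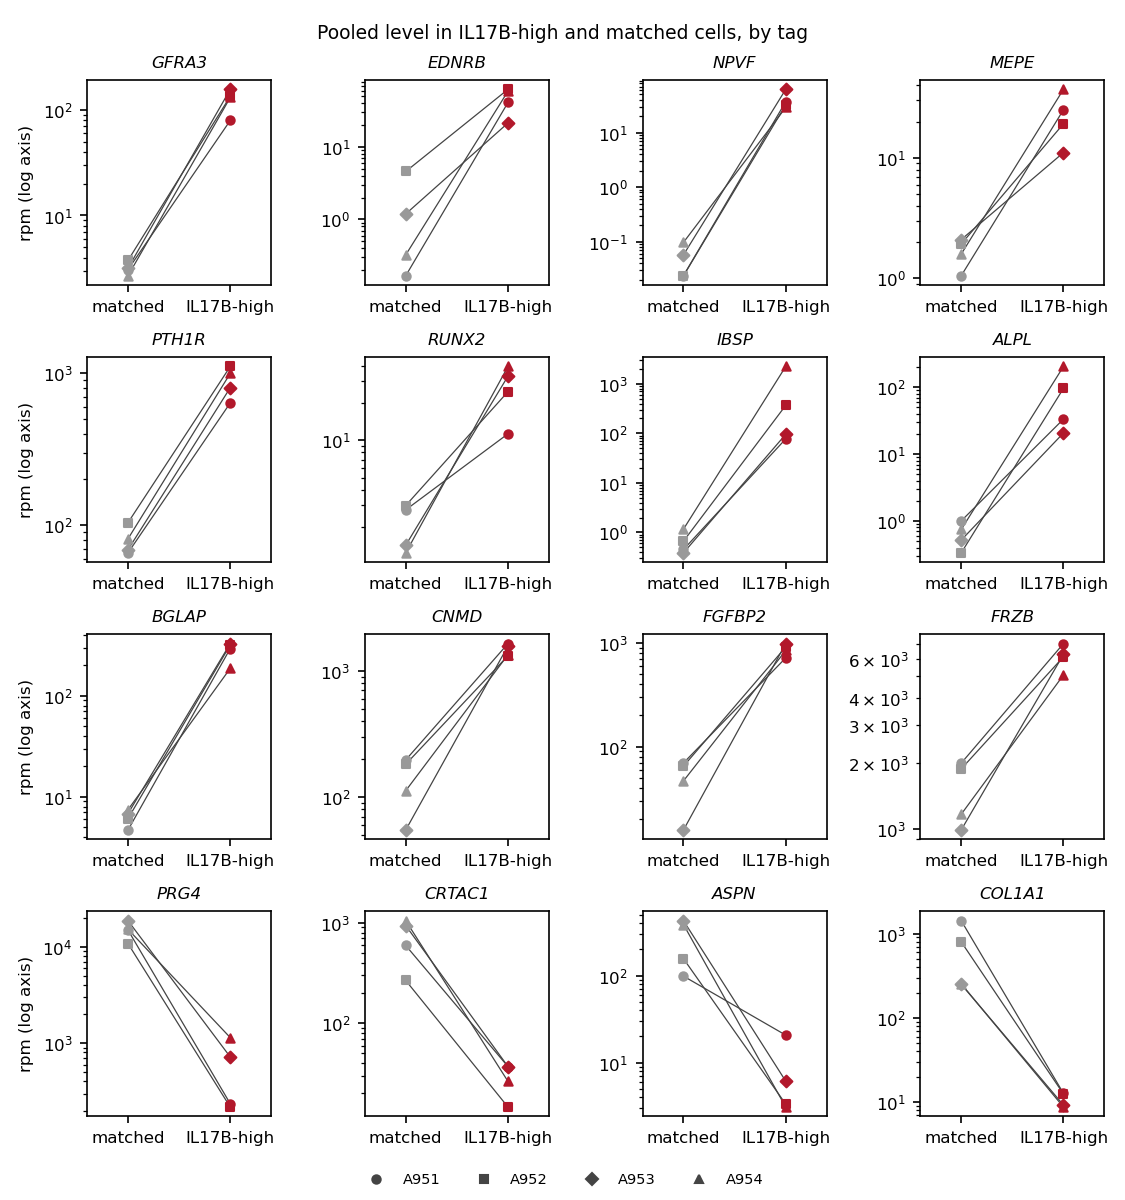
Pooled level in rpm (log axis) of 16 genes in the matched cells (grey) and the IL17B-high cells (red) of each tag, joined by a line, with 1 marker shape for each tag. Every line goes up for the first 12 genes and down for *PRG4*, *CRTAC1*, *ASPN* and *COL1A1*, and *IBSP* under A954 (2240 rpm) stands apart from its other tags.

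Some secreted genes of cartilage were present in nearly all IL17B-high cells and in fewer matched cells. *CNMD*, chondromodulin, an inhibitor of vessel growth in cartilage, was at 1642, 1316, 1574 and 1340 rpm against 197, 182, 54.8 and 112 rpm (3.89), and *FGFBP2*, a secreted protein that binds fibroblast growth factors, at 718, 914, 986 and 847 rpm against 69.8, 64.9, 15.8 and 46.8 rpm (4.11). Both reached 5 reads in most members, 96.7% and 94.1%, against 23.7% and 15.8% of matched cells. Among genes found in fewer members, *SCIN*, an intracellular actin-severing protein, reached 5 reads in 71.1% against 10.4% of cells, and *TF*, transferrin, in 46.1% against 2.76%.

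*FRZB*, a secreted WNT antagonist of cartilage, was at 7068, 6148, 6307 and 5074 rpm against 2001, 1883, 989 and 1167 rpm (2.42). It was the only 1 of 11 compared WNT ligands and antagonists that was 2-fold higher, while 8 were lower, among them *WIF1* (33.1 against 284 rpm, -3.10), *SFRP1* (11.2 against 63.0 rpm, -2.49) and *SFRP2* (0.243 against 11.7 rpm, -5.59). *CHRDL2*, a BMP antagonist, was at 298 rpm against 52.1 rpm (2.52) and was the only gene 2-fold higher among 14 BMP and GDF ligands and antagonists, 7 of which were lower.

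The core cartilage matrix genes were present at a high level. *COL2A1*, type II collagen, was at 30321 rpm against 18510 rpm (0.71), and *ACAN*, aggrecan, at 4645 rpm against 3428 rpm (0.44), both inside 2-fold. *COL9A1* was at 12924 rpm against 4355 rpm (1.57), *CHAD*, chondroadherin, at 17966 rpm against 7119 rpm (1.34) and *SNORC*, a transmembrane proteoglycan of cartilage, at 6502 rpm against 2551 rpm (1.35), each 2-fold higher. Of 15 compared cartilage matrix genes 5 were higher and 3 lower, with a median of 0.71. Of 5 chondrogenic transcription factors *SOX6* was higher (1.14), and *SOX9* was at 225 rpm against 338 rpm.

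The largest group on the lower side was the list of superficial zone and fibrocartilage genes. Of 16 compared genes 14 were 2-fold lower and 1, the tendon transcription factor *MKX*, was higher (2.29, but not under A951), with a median log2 ratio of -3.41. *PRG4*, lubricin, was at 235, 217, 718 and 1140 rpm against 14856, 10756, 18585 and 15133 rpm (-4.71). *CRTAC1*, a matrix protein of articular chondrocytes, was at 37.0, 14.6, 37.0 and 26.4 rpm against 594, 266, 937 and 1049 rpm (-4.76). Neither gene's tags overlapped between groups.

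The *PRG4* reads of the IL17B-high cells lay at a nearly constant low level. The median per cell was 182 rpm with quartiles of 161 and 212 rpm, against 7142 rpm in matched cells and 174 rpm in the *KRT19* cells, which had a median of 172935 reads. Under a limit of 500 rpm, set after the values were seen, fell 143 of 152 IL17B-high cells (94.1%, 89.1 to 97.3%), 119 of 760 matched cells (15.7%, 13.1 to 18.4%) and 331 of 363 *KRT19* cells (91.2%, 87.8 to 93.9%). A *PRG4* level of this size was thus shared with *KRT19* cells, and its source was not tested. By tag the counts were 35 of 37, 40 of 42, 48 of 52 and 20 of 21, and the 9 cells above the limit carried most of the pooled *PRG4*, with 67.0% of all reads of the group in 5 cells.

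**Figure D4:**
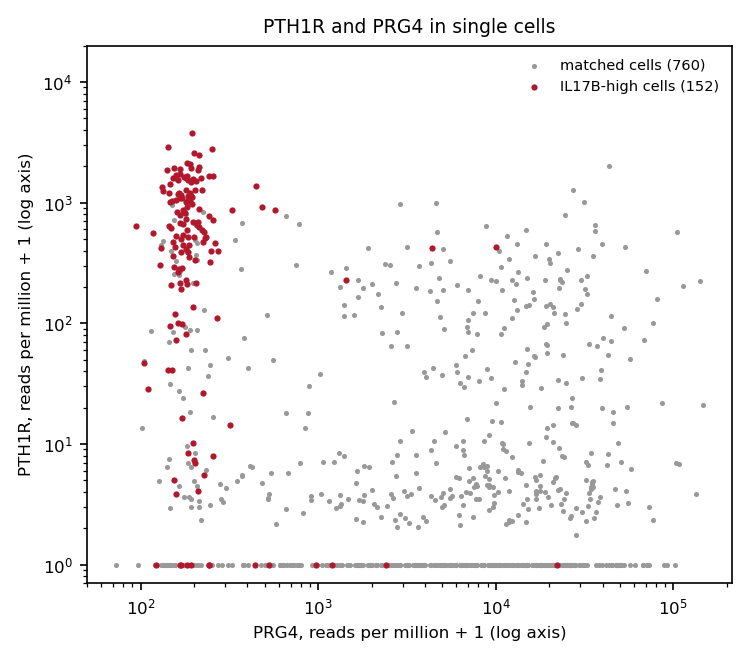
*PTH1R* against *PRG4* in single cells, both in rpm plus 1 on log axes, with 152 IL17B-high cells in red and 760 matched cells in grey. The IL17B-high cells form a column near 182 rpm of *PRG4* with *PTH1R* quartiles of 203 and 1184 rpm, and 15.7% of the matched cells lie below 500 rpm of *PRG4*.

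Since 940 of the 5159 other cells were also under 500 rpm of *PRG4*, the IL17B-high cells were set beside 152 cells drawn from those alone, 1 for each member, of which 93.4% were within 10% in genes detected. *PTH1R* was then at 863 rpm against 86.7 rpm (3.31), *RUNX2* at 27.2 against 4.43 rpm (2.62), *BGLAP* at 295 against 8.70 rpm (5.08), *GFRA3* at 129 against 3.61 rpm (5.16), *EDNRB* at 4.69 and *MEPE* at 3.59 on the log2 scale, and *NPVF* at 44.0 against 0.0684 rpm (9.33). These ratios remained above 2-fold. All but that of *EDNRB* were smaller than against all matched cells, most of all *MEPE* (4.89 there) and *RUNX2* (3.73 there). Smaller too were *CNMD* at 1.51, *FGFBP2* at 2.15, *FRZB* at 1.68, *IBSP* at 3.61, *PHOSPHO1* at 1.78, *TAGLN* at 1.88 and *APOE* at 1.32. *SMPD3* fell inside 2-fold (0.86), as did *CHAD* (0.64) and *COL9A1* (0.96). *SPP1* turned to -0.62, with 3351 rpm in IL17B-high cells and 5160 rpm in the others. *SNORC* (0.88), *SOX6* (0.85), *PTCH1* (0.99), *OMD* (0.57), *HSPA5* (0.83) and *RGS5* (0.48) also came inside 2-fold, as did, on the lower side, *MKI67* (-0.68), *CD68* (-0.89) and *TUBB3* (-0.73), and *IL11* turned to -0.29. Of the genes called against all matched cells, 6 of 7 higher ones of the mineralization list kept their call, 12 of 14 lower ones of the superficial zone list, 7 of 8 of the WNT list, 6 of 7 of the insulin-like growth factor list, 8 of 11 of the NF-kB list and 1 of 5 of the heat shock list. Some lower genes that stayed past 2-fold had smaller ratios, with *CRTAC1* at -2.13, *ASPN* at -1.63, *COL1A1* at -2.12, *COL1A2* at -1.80, *INHBA* at -1.59, *SOST* at -2.53 and *MMP1* at -2.38, whereas *CXCL8* (-5.57) and *WIF1* (-3.03) hardly moved and *UCMA* was further away at -6.57.

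Collagens of the superficial zone and fibrocartilage list were among its lower genes. *COL3A1*, type III collagen, was at 391 rpm against 2243 rpm (-2.52), and *COL14A1*, a collagen of dense tissue, at 26.1 rpm against 480 rpm (-4.20). *COL1A1* was at 12.7, 12.5, 9.24 and 8.76 rpm against 1421, 798, 251 and 254 rpm (-5.82), but the medians per cell were 9.03 and 9.06 rpm and 37.5% against 40.3% of cells had 5 or more reads, so the pooled difference came from part of the matched cells. *COL1A2* showed the same, with 34.5 rpm against 813 rpm pooled (-4.56) and medians of 27.2 and 26.5 rpm.

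Small leucine-rich proteoglycans, which bind and space collagen fibrils, were lower in 5 of 9 compared genes and higher in 1, with a median of -1.90. *ASPN*, asporin, was at 20.7, 3.35, 6.15 and 3.10 rpm against 98.4, 156, 425 and 384 rpm (-5.43), *OGN* at 22.3 rpm against 427 rpm (-4.26), *FMOD* at 2143 rpm against 8333 rpm (-1.96) and *DCN* at 1376 rpm against 5138 rpm (-1.90). *OMD*, osteomodulin, a member known from bone, was the higher gene of that list at 116 rpm against 40.3 rpm (1.52), and *BGN* was at 9839 rpm against 11452 rpm. *EPYC*, epiphycan, a proteoglycan of the same family counted in the cartilage matrix list, was also higher (6.30 against 1.66 rpm, 1.93, and 3.51 without tag A952). *EPYC* passed the limit of 10% of cells through the IL17B-high cells alone (a read in 13.2% against 8.95% of cells). *CILP2*, a cartilage intermediate layer protein, reached 5 reads in 8.55% of IL17B-high and 60.8% of matched cells.

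Genes of the NF-kB and interleukin-17 response were mostly lower, in 11 of 14 compared genes, with *IL11* higher (1.36) and a median of -1.84. *SOD2*, a mitochondrial superoxide dismutase, was at 154 rpm against 1376 rpm (-3.16), *NFKBIZ*, a nuclear NF-kB cofactor, at 140 rpm against 485 rpm (-1.79) and *NFKBIA* at 76.3 rpm against 340 rpm (-2.15). For the chemokine *CXCL8* the pooled ratio of -5.68 (3.29 against 168 rpm) came with medians per cell of 2.10 and 2.22 rpm and with 4.61% and 6.71% of cells at 5 or more reads, so it reflects a small number of matched cells with many reads. *IL6* and *CCL2*, both 2-fold lower against all matched cells, were at 0.29 and 0.16 on the log2 scale against the cells low in *PRG4*.

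Insulin-like growth factor genes were lower in 7 of 10 compared genes and higher in 0, with *IGFBP5* at 10.4 rpm against 307 rpm (-4.88) and *IGFBP7* at 86.5 rpm against 703 rpm (-3.02). *INHBA*, a subunit of activin, was at 542, 560, 820 and 2391 rpm against 6680, 6169, 11047 and 6919 rpm (-2.99), without overlap between the groups. *CLU*, clusterin, was at 1354 rpm against 9535 rpm (-2.82). Of 9 heat shock and stress genes 5 were lower and *HSPA5*, a chaperone of the endoplasmic reticulum, was higher at 2688 rpm against 1145 rpm (1.23).

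In the hedgehog pathway *PTCH1*, the receptor that is also a target gene, was at 23.0, 41.7, 35.7 and 51.9 rpm against 6.25, 17.2, 12.1 and 11.3 rpm (2.21), without overlap. *GLI1*, another target, was at 14.1 rpm against 7.16 rpm (0.98), just inside 2-fold, and *GLI2* was at 1.90 on the log2 scale with 83.2% of its reads in 5 cells. The co-receptors *CDON* (47.7 against 175 rpm, -1.87) and *BOC* (24.9 against 83.6 rpm, -1.75) were lower. Of 10 compared genes of the pathway 2 were higher and 2 lower, with a median of 0.06. Among all compared genes 6.83% were higher and 17.7% lower, so the count of lower genes lay near that share. The 2 higher genes were *PTCH1*, at 0.99 against the other cells under 500 rpm of *PRG4*, and *GLI2*.

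**Figure D5:**
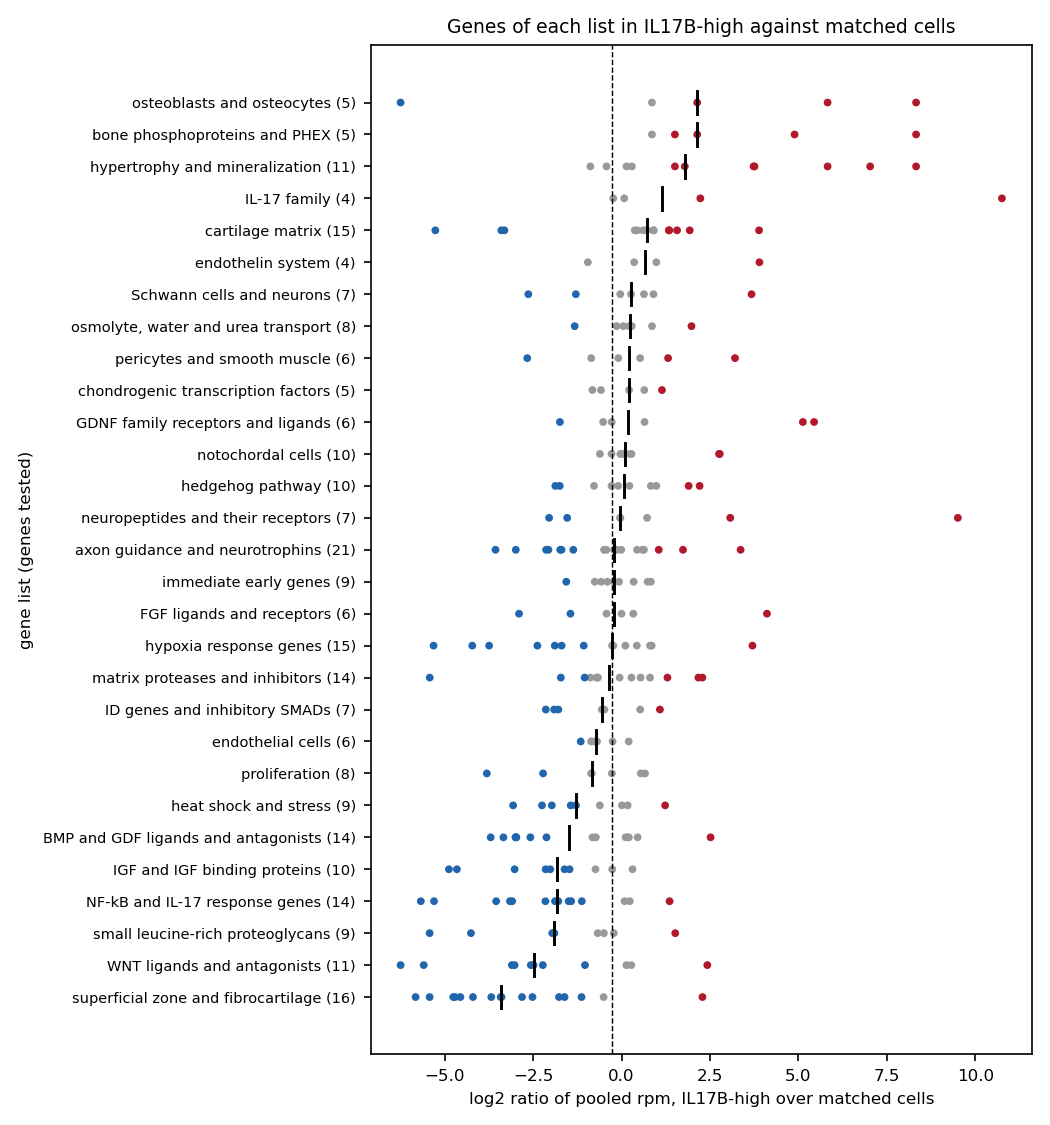
Log2 ratio of each compared gene in 29 gene lists, IL17B-high over matched cells, with genes 2-fold higher in red, 2-fold lower in blue, the list median as a bar and the median of all 10910 genes (-0.27) as a dashed line. *IL17B* itself, at the far right of the interleukin-17 list, chose the cells. The mineralization list lies to the right (median 1.79) and the superficial zone list to the left (median -3.41).

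Among the 20 genes other than *IL17B* and the 4 markers with the largest ratios on the higher side and the same sign under each tag, *PRKG2*, a cGMP-dependent kinase with a role in growth plate cartilage, had a read in 50.7% against 18.4% of cells. It was at 54.3, 54.9, 58.3 and 44.8 rpm against 1.98, 0.857, 0.445 and 0.227 rpm (6.58) and reached 5 reads in 35.5% against 0.395% of cells. *PTGER3*, a prostaglandin E receptor, was at 59.4 rpm against 0.950 rpm (5.97), *RFTN1*, a lipid raft protein, at 92.1 rpm against 1.99 rpm (5.53), *CA2*, a carbonic anhydrase, at 54.2 rpm against 1.08 rpm (5.65) and *F13A1*, a subunit of coagulation factor XIII, at 102 rpm against 1.31 rpm (6.28). *BCL2A1*, an inhibitor of apoptosis, reached 5 reads in 17.8% of IL17B-high and 0.526% of matched cells. *CA2* (a read in 42.1% against 8.16% of cells) and *BCL2A1* (20.4% against 2.37%) passed the limit of 10% of cells through the IL17B-high cells alone. For such genes a place among the 20 is a description only.

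Other genes of that list rested on a few cells. Of the reads in IL17B-high cells, 5 cells held 99.5% for *TRH*, 97.7% for *SLC28A3*, 95.4% for *MOBP* and 90.7% for *EVI2B*. Their pooled ratios of 5.38, 5.28, 5.52 and 9.24 thus describe those cells and not the group. The remaining genes were *L1TD1*, *PANX*, *GPRC5B*, *SLC4A11*, *RAB39B*, *SMIM31* and *SLC38A4*, found in 11.2% to 32.9% of IL17B-high cells, besides *IBSP*, *ALPL* and *BGLAP*.

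The 20 genes with the largest ratios on the lower side were led by *SLPI* (0.349 against 39.3 rpm, -6.81), a protease inhibitor, *COX4I2* (0.197 against 20.8 rpm, -6.72), a subunit of cytochrome c oxidase, and *SOST* (0.273 against 20.8 rpm, -6.25), the WNT antagonist sclerostin. The medians per cell of *SLPI*, *COX4I2* and *SOST* were 0 rpm in both groups. Only 5%, 7.76% and 7.11% of matched cells had 5 or more reads, so these pooled ratios reflect a small part of the matched cells. *ABI3BP*, a matrix protein, had 5 or more reads in 12.5% against 70.8% of cells, the widest gap of the 20, with levels of 7.25, 4.24, 11.4 and 6.02 rpm against 252, 272, 394 and 283 rpm (-5.21). *UCMA*, a protein of upper zone growth plate cartilage, was at 1.24 rpm against 47.9 rpm (-5.27), and *ENO2*, an enolase, at 0.881 rpm against 34.8 rpm (-5.30). *MMP1*, a collagenase, had 5 or more reads in 0 IL17B-high cells and 4.34% of matched cells.

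Marker lists of other cell types were compared in the same way. Among all compared genes 6.83% were 2-fold higher and 17.7% lower, and the lists are short, so counts of 1 or 2 genes are descriptions only. Of 10 notochordal genes 2 were higher, *APOE* (354 against 51.6 rpm, 2.78) and *NRN1* (6.83 against 1.01 rpm, 2.76), and 0 lower. *APOE* supplied most of the list's reads, and the list summed to 322, 407, 514 and 188 rpm by tag against 104.5, 118, 65.4 and 59.4 rpm. *KRT19* cells held 10482 rpm of *APOE*, and *TBXT*, the defining transcription factor, was at 0.714 rpm in IL17B-high cells against 0.607 rpm. *NRN1* had 96.4% of its reads in 5 cells and was at -2.16 without tag A953.

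Of 6 pericyte and smooth muscle genes 2 were higher, *TAGLN* (694 against 75.1 rpm, 3.21), an actin-binding protein, and *RGS5* (3.61 against 1.45 rpm, 0.064 on the log2 scale without tag A952), and 1 was lower, *PDGFRB*. The list summed to 934, 556, 826 and 614 rpm by tag against 201, 177, 129 and 131 rpm, mostly *TAGLN*. *MCAM* had no read in the IL17B-high cells, and *MYH11* and *ACTA2* were at 0.88 and 13.6 rpm against 1.60 and 9.43 rpm.

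Of 5 osteoblast and osteocyte genes *IBSP*, *BGLAP* and *DMP1* were higher and *SOST* lower, with list sums of 394, 705, 476 and 2465 rpm by tag against 61.1, 46.2, 29.1 and 55.2 rpm and *IBSP* as the gene with the most reads. *BGLAP* and *DMP1* passed the limit of 10% of cells through the IL17B-high cells alone. *SP7* was at 0.0759 rpm and *FGF23* at 0.0304 rpm. Of 6 endothelial genes 0 were higher and *ESAM* was lower, and the list summed to 12.8, 25.2, 20.2 and 15.7 rpm against 45.6, 24.2, 15.7 and 54.7 rpm with *FLT1* the most abundant at 11.5 rpm. Of 3 immune genes *CD68* was lower, with sums of 22.9, 6.98, 19.4 and 4.20 rpm against 18.0, 14.9, 24.6 and 27.9 rpm, and *AIF1* had no read.

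Of 7 Schwann cell and neuron genes *CDH19* and *TUBB3* were lower, with sums of 24.3, 8.41, 14.5 and 30.01 rpm against 18.2, 10.4, 12.2 and 5.09 rpm and *NGFR* at 7.48 rpm. *SOX10* was at 0.152 rpm. Of 8 proliferation genes 0 were higher and 2, *MKI67* and *TYMS*, were lower, with sums of 117, 71.3, 106 and 36.9 rpm against 291, 220, 170 and 109 rpm and *STMN1* the most abundant. *ALAS2*, the 1 red blood cell gene counted, had no read in IL17B-high cells. The part of other cells, of depth and of cells caught together in the results above was not tested.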

How the data were processed

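The deposited matrix holds raw read counts per gene and cell, 21371 genes by 5723 columns. According to the sources used here, the authors aligned reads with HISAT2 2.2.1, assigned them to genes with featureCounts 2.0.2 and counted without molecular identifiers, so PCR copies remain in the counts. The genome build is not given in the sources used here, so no coordinates are given. The 49 columns marked as doublets or without a tag and the 1358 columns of another matrix that matches no label were not used, and no doublet caller was run. Tagged cells held 24907 to 1649566 reads (median 198095).

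Pooled rpm were compared with Python 3.11.15, numpy 2.4.6, scipy 1.17.1 and pandas 2.3.3, and a group under 3 reads was set to 3 reads. Matching on genes detected took up to 5 other cells per member without replacement, 99.9% of them within 10%. Shares carry exact binomial 95% intervals. Genes with a read in at least 10% of the cells of 1 group were compared, and a 2-fold ratio was the size called. Named genes are those of the gene lists, the 20 largest ratios in each direction with the same sign under each tag, and 15 in each direction by share of cells, the last chosen after values were seen. Neighbours used log2(rpm + 1) and 30 principal components. Calculations were tested on simulated data. Members, lists and markers were chosen with earlier results of these data known. Some members of the gene lists are counted but not reported by name here.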

Additional observations from a re-analysis of the deposited data

How the results depend on the processing

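Thinning each cell to 50000 reads left 460 genes 2-fold higher and 1200 lower, but only 7745 genes were then compared, in place of 10910. The mean of log2(rpm + 1) over cells, which weighs cells equally and shrinks low genes, left 371 and 485 of the 10910 genes. Its median log2 ratio was 2.17 for *GFRA3*, *EDNRB*, *NPVF* and *MEPE*. A limit of 1% of cells in place of 10% gave 1276 higher genes among the 14180 then compared. Among thinned members 41.3% had a read of *GFRA3*, 34.7% of *EDNRB*, 30.7% of *NPVF* and 12.7% of *MEPE*. Leaving out each tag in turn gave shares of IL17B-high cells from 2.47 to 4.15%, the highest without A954, counts of 771 to 858 higher and 1983 to 2252 lower genes, and medians of the 4 markers from 4.44 to 5.88. The share of member neighbours was 73.5 to 75.8% over its alternatives.

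The 20 genes with the largest ratios in each direction kept their sign under each setting tried. They were chosen from these same cells for large ratios and the same sign under each tag, so that outcome was largely set by the choice. On the mean of log2(rpm + 1) 9 of the higher and 4 of the lower ones were still past 2-fold. Signs turned for *ADCYAP1* after thinning (0.58), for *CSF3* (0.016), *FOS* (0.025) and *PLXND1* (-0.026) on the mean of log2(rpm + 1), for *IGF1* with *KRT19* at 0 reads (0.073), and for *PLXND1* with members from 200 rpm (-1.84). Without 1 tag *PLXND1* ranged from -1.84 to 1.83 and *NRN1* from -2.16 to 3.27. Ratios of other 2-fold genes that moved by over 1.5 times without a tag are given next for part of the genes, and further list members also moved. Without A951 they were *ADAMTS5* (-1.01), *ASPN* (-6.39), *IL17RC* (2.96), *IL6* (-3.81), *MKX* (2.92), *RUNX2* (4.59), *SFRP2* (-6.37), *SLC28A3* (2.19), *SMPD3* (7.22) and *UCMA* (-5.91). Without A952 they were *CA2* (7.53), *EDNRB* (4.59), *EPYC* (3.51), *EVI2B* (7.41), *GFRA3* (6.51), *MKI67* (-4.81), *RGS5* (0.064), *SLPI* (-7.41) and *SMPD3* (7.34). Without A953 they were *ADAMTS5* (-0.35), *CD68* (-2.46), *DMP1* (1.47), *F13A1* (5.67), *GDNF* (4.403), *GLI2* (1.28), *IBSP* (9.38), *IGFBP5* (-3.70), *IL17RC* (0.65), *L1TD1* (8.97), *MEPE* (5.67), *MMP1* (-4.50), *NRTN* (-0.90), *PDGFRB* (-3.83), *RAB39B* (3.12), *RUNX2* (3.14), *SFRP2* (-4.86), *SLPI* (-5.81), *SMPD3* (3.53) and *SOST* (-6.89). Without A954 they were *ADAMTS1* (-2.14), *ADAMTS5* (-2.38), *ALPL* (6.02), *CA2* (4.52), *ENO2* (-4.50), *EVI2B* (7.10), *FOS* (-2.35), *GDNF* (6.93), *ID3* (-2.86), *IGFBP5* (-5.71), *INHBA* (-3.71), *MEF2C* (1.20), *MEPE* (3.99), *MKX* (1.503), *NPVF* (10.23), *OMD* (2.12), *RAB39B* (6.37), *SFRP2* (-6.22), *SMPD3* (3.68), *TAGLN* (3.95), *TF* (4.34), *TUBB3* (-2.89) and *UCMA* (-4.51). Apart from the mean of log2(rpm + 1) and the cells low in *PRG4*, further genes came inside 2-fold or turned under at least 1 setting, tags left out included. Besides the reversals given above they included *ADAMTS1*, *ADAMTS5*, *CCL2*, *CDH19*, *DMP1*, *EPYC*, *ESAM*, *FOS*, *GLI2*, *HSPA5*, *IL17RC*, *IL6*, *NRN1*, *NRTN*, *RGS5*, *SMAD7*, *SOX6* and *TUBB3*. Others were *SLC14A1* (0.52 without A954), *SLC6A6* (-0.37 without A953) and *TNFAIP6* (-0.83 without A954). The causes were not tested.

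Against other cells under 500 rpm of *PRG4* alone, a comparison chosen after seeing the data, 912 of 10853 compared genes were higher and 1708 lower. Signs turned for *SPP1* (-0.62), *IL11* (-0.29), *SLC14A1* (-0.056), *BMPER* (1.26), *CALCA* (1.90), *SEMA3D* (0.91), *IL6* (0.29), *CCL2* (0.16), *ADCYAP1* (0.13) and, by the way those cells were chosen, *PRG4* (1.35).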

Other observations

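Genes outside the comparisons above were also counted, where 6.83% of all compared genes were 2-fold higher and 17.7% lower. Of 15 hypoxia response genes 7 were 2-fold lower in IL17B-high cells and 1 higher, with a median of -0.27. *CA9*, a carbonic anhydrase induced by low oxygen, was at 6.12 rpm against 82.1 rpm (-3.75) and *BNIP3*, a mitophagy receptor, at 221 rpm against 819 rpm (-1.89), whereas *CA12* was at 39.3 rpm against 3.03 rpm (3.70) and *SLC2A1*, a glucose transporter, at 552 rpm against 306 rpm (0.85). *HIF1A* was at 1013 rpm against 751 rpm and *EPAS1* at 24.2 rpm against 78.4 rpm (-1.70). Of 7 ID genes and inhibitory SMADs 3 were lower, with *ID1*, *ID2* and *ID3*, targets of BMP signalling, at -1.91, -1.79 and -2.14, and *SMAD7* was higher (1.08), but not under A951 (54.4 against 59.3 rpm). Of 9 immediate early genes *FOS* was lower (-1.56) and 8 lay inside 2-fold, although under A954 *FOS* was at 628 rpm against 147 rpm.

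Of 21 axon guidance and neurotrophin genes 3 were higher and 7 lower. *EFNB2*, an ephrin, was at 84.2 rpm against 8.17 rpm (3.37), and *SEMA3A*, a repellent semaphorin, at 20.1 rpm against 238 rpm (-3.57), but against the other cells under 500 rpm of *PRG4* it was at -0.46. Of 14 matrix proteases and inhibitors 3 were higher and 3 lower, the latter near the 17.7% of all compared genes that were lower. Against the other cells under 500 rpm of *PRG4*, 0 of the 3 higher and 1 of the 3 lower kept their call. The higher ones included the inhibitors *SERPINE2* (1975 against 438 rpm, 2.17) and *TIMP3* (1897 against 772 rpm, 1.30). The lower ones were all proteases, *MMP1*, *ADAMTS1* (-1.04) and *ADAMTS5* (-1.72, but 10.5 against 1.62 rpm under A954, and -0.35 without A953). Of 6 fibroblast growth factor genes *FGFBP2* was higher and *FGFR2* (4.84 against 36.1 rpm, -2.90) and *FGF18* (-1.45) were lower, while *FGFR3* was at 86.7 rpm in both groups. Against the other cells under 500 rpm of *PRG4*, *SERPINE2* (0.56), *TIMP3* (0.084), *ADAMTS1* (-0.039), *ADAMTS5* (-0.013), *ID2* (-0.50), *SMAD7* (0.13) and *FOS* (-0.60) came inside 2-fold.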
